A study of Danio rerio with 12 samples.

Results

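Open chromatin was mapped by ATAC-seq, in which a transposase cuts accessible DNA, across 6 zebrafish Hox cluster windows of 400 kb each. The windows lie, on the GRCz11 assembly, on chromosome 3 from 23.5 to 23.9 Mb, chromosome 9 from 1.8 to 2.2 Mb, chromosome 12 from 26.9 to 27.3 Mb, chromosome 16 from 20.7 to 21.1 Mb, chromosome 19 from 19.5 to 19.9 Mb and chromosome 23 from 35.8 to 36.2 Mb. Summits, the single bases of highest signal that the authors' peak caller placed in each library, were chained into 1 region when they lay within 250 bp of each other in any of the 12 libraries. A region belonged to a window when its middle lay inside it. This gave 478 Hox-window regions of 133213 in the genome, and 132735 lay outside the windows. The rule itself uses positions only, and the windows were proposed with earlier results of these data known.

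Hox genes encode homeodomain transcription factors that stand in clusters along the chromosome. Within a cluster the order of the genes follows the order of their expression along the body from head to tail, a property called colinearity, and the genes give cells of the trunk their axial identity. Much of the head skeleton forms from cranial neural crest, whose anterior part is known for lacking Hox expression, while the trunk skeleton forms from mesoderm. Teleost fish carry duplicated clusters, named with the letters a and b after those of other vertebrates. In the RefSeq gene table, built on the later GRCz12tu assembly, the 6 chromosomes of the windows list 45 Hox genes. Chromosome 3 lists 11, from hoxb13a to hoxb1a, chromosome 23 lists 11, from hoxc13a to hoxc1a, chromosome 19 lists 7, from hoxa13a to hoxa1a, and chromosome 9 lists 7, from hoxd3a to hoxd13a. Chromosome 16 lists 5, from hoxa13b to hoxa2b, and chromosome 12 lists 4, which are hoxb8b, hoxb1b, hoxb6b and hoxb5b. The table was used for names and neighbours only, so no region below is assigned to a gene, and whether a region lies in an exon, an intron or a promoter was not analysed here. A further cluster on chromosome 11 was outside the windows.

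Every group came from wild-type fish at 15 days post fertilisation that carried entpd5a:Gal4FF with UAS:GFP, and also R2col2a1a:mCherry. Osteoblasts, the bone-forming cells, were sorted as GFP positive and mCherry negative, from the trunk (called non-classical in the labels) and from the head (called classical). Chondrocytes, the cartilage cells, were sorted as mCherry positive and GFP negative, from between the segments of the trunk spine and from the head. There were 3 libraries in each of the 4 groups: trunk osteoblasts, head osteoblasts, trunk chondrocytes and head chondrocytes. The reporters define the sorted populations, so a cell that does not drive entpd5a or the col2a1a element was not collected, and defining markers of the cell types were not checked because no annotation of this assembly was used. The titles call the libraries biological replicates without naming separate clutches or sorts, so the p-values measure the spread between these libraries.

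The full lists held 24798 and 64219 summits in trunk osteoblast replicates 2 and 3, 28911, 78652 and 60979 in head osteoblasts, 27334, 55274 and 8407 in trunk chondrocytes, and 79517, 51158 and 46446 in head chondrocytes. Trunk osteoblast replicate 1 had the second shortest list, between those of 8407 and 24798. The sequencing depth behind them is unknown. Trunk chondrocyte replicate 3 stood apart with the shortest list. Libraries were therefore compared at equal length on their strongest 8407 summits each, the length of that shortest list, called the short lists below. They were compared again at the length of the trunk osteoblast replicate 1 list, without trunk chondrocyte replicate 3, called the long lists. Full lists are named as such. Replicate 1 of trunk osteoblasts, head osteoblasts and trunk chondrocytes had lost files, per the labels, and was kept. A rank of 1 is the strongest summit of a library, and a region missing from a list is not thereby shown to be closed. In sorted bulk cells, fewer cells with an open site and less signal per cell cannot be told apart.

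The windows were densely filled. Their 24 bins of 100 kb held a mean of 19.9 regions and a median of 22, with a range from 0 to 34, against a mean of 10.9 and a median of 10 over the 11777 bins of the genome with a region. The windows differed among themselves, with 106 regions on chromosome 3, 74 on chromosome 9, 33 on chromosome 12, 86 on chromosome 16, 62 on chromosome 19 and 117 on chromosome 23. On chromosome 12 all but 1 of the regions lay in the part left of the window's centre, and the exception, chr12:27243070-27243070, was held by 1 library. The median Hox-window region spanned 53.5 bp, against 41 bp over all regions, which is the spread of summits between libraries and not the width of the open site.

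Over the full lists, 124 of the 478 regions (25.9%) were held by 1 library, against 32.4% of all regions, and 297 (62.1%) were held by at least 3, against 52.4%. All 12 libraries held 16 (3.35%), against 3.97% of all regions. The chromosome 9 window was the most variable, with 32 of its 74 regions held by 1 library and 0 held by all 12. On the chromosome 16 window 16 of 86 regions were held by 1 library and 64 by at least 3. Trunk libraries alone held 84 of the 478 regions, head libraries alone held 118, and both held 276. The trunk lists held 200412 summits in sum and the head lists 345663, so these shares carry no direction. The same split over all regions is not given here, so these counts are not read against the genome. Any of the 12 libraries held 92 Hox-window regions in the short lists, and any of 11 held 204 in the long lists.

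Regions lay on both sides of the window edges. The outermost regions inside lay between 553 and 56930 bp from an edge, and the nearest regions outside lay between 841 and 88066 bp from it. On the left of the chromosome 3 window, for example, chr3:23505676-23505676 was inside and chr3:23499103-23499215 was outside, held by 1 and 7 libraries. On the right of the chromosome 12 window the last region inside was 56930 bp from the edge, and the first outside, chr12:27353272-27353285, was 53278 bp beyond it.

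All 12 libraries held 11 of the 92 Hox-window regions of the short lists, against 2897 of 19320 regions in the genome. A few of them were among the strongest sites of every library. The strongest was chr3:23604360-23604370, with ranks of 162, 64 and 42 in trunk osteoblasts, 42, 9 and 8 in head osteoblasts, 94, 8 and 169 in trunk chondrocytes, and 4, 35 and 10 in head chondrocytes. It was thus within the strongest 169 summits everywhere. The next, chr23:36003447-36003474, had ranks of 255, 322 and 69 in trunk osteoblasts, 131, 76 and 40 in head osteoblasts, 259, 99 and 681 in trunk chondrocytes, and 27, 105 and 83 in head chondrocytes. The third, chr19:19504724-19504792, had a mean rank of 377. Mean ranks of 1243, 1258 and 1475 belonged to chr16:20870990-20871058, chr19:19599418-19599474 and chr3:23561174-23561277. The chromosome 12 window had its strongest site at chr12:27061785-27061804, with a mean rank of 3737. On chromosome 9 no site reached this level in all libraries, and the strongest region held by at least 3 libraries, chr9:2125775-2125825, had a mean rank of 10875.

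Trunk cells had more Hox-window regions than head cells in both cell types. The trunk osteoblast libraries held 39, 44 and 39 regions in the short lists and the head osteoblast libraries 33, 36 and 34. Trunk chondrocyte libraries held 40, 42 and 42, and head chondrocyte libraries 34, 39 and 38. The groups touched at 39, a value in 2 trunk osteoblast libraries and 1 head chondrocyte library, and did not overlap within a cell type. Trunk libraries averaged 41.0 ± 2.0 and head libraries 35.7 ± 2.42 (SD, n = 6 each), a difference of 5.33 regions. In an exact two-sided permutation of location within cell type over 400 arrangements, p was 0.005, the smallest this design can give. With the replicate number of the titles as a block, the exact permutation p was 0.0313 over 64 arrangements.

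**Figure D1:**
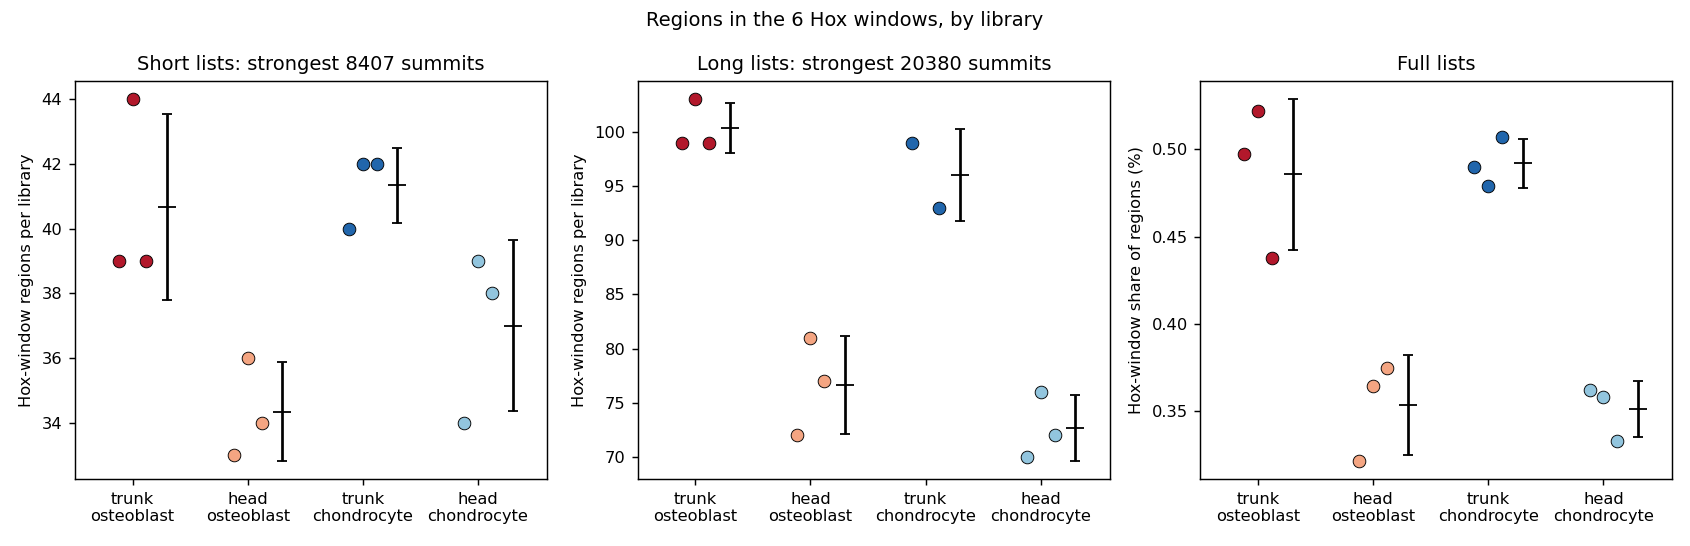
Hox-window regions per library by group, in the short lists of 8407 summits, in the long lists without trunk chondrocyte replicate 3, and as a percentage of all regions in the full list. Points are libraries, and the bar beside them is the mean ± SD; in the long lists the trunk libraries sit between 93 and 103 and the head libraries between 70 and 81.

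The difference was wider in the long lists. There the trunk osteoblast libraries held 99, 103 and 99 regions and the head osteoblast libraries 72, 81 and 77. The 2 trunk chondrocyte libraries held 99 and 93, and the head chondrocyte libraries 70, 76 and 72. Every trunk library lay above every head library, and the difference averaged over the cell types was 23.5 regions (exact two-sided permutation p = 0.005, 200 arrangements, n = 5 and 6). As a share of each full list the trunk osteoblast libraries had 0.497, 0.522 and 0.438% and the head osteoblast libraries 0.321, 0.365 and 0.375%. Trunk chondrocyte libraries had 0.490, 0.479 and 0.507% and head chondrocyte libraries 0.362, 0.358 and 0.333%. By this measure too no trunk library overlapped a head library, and the shortest list, trunk chondrocyte replicate 3, had the second highest share. Raw counts in the full lists ran the other way, at 156 ± 93.0 in trunk and 203 ± 76.5 in head libraries (SD, n = 6 each; exact permutation p = 0.385), with trunk lists that were shorter on average.

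Within each cell type 3 libraries stood against 3, and p cannot go below 0.1. Trunk osteoblasts held 100.3 ± 2.31 Hox-window regions and head osteoblasts 76.7 ± 4.51 in the long lists (SD, n = 3 each; exact permutation p = 0.1). Trunk chondrocytes held 41.3 ± 1.15 and head chondrocytes 37.0 ± 2.65 in the short lists (SD, n = 3 each; exact permutation p = 0.1). In both pairs the libraries did not overlap.

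The difference passed the test in the long lists on chromosomes 3, 19 and 23. The chromosome 23 window of the long lists held 30, 31 and 26 regions in trunk osteoblasts and 16, 20 and 19 in head osteoblasts. It held 23 and 23 in trunk chondrocytes and 15, 15 and 18 in head chondrocytes. All trunk libraries lay above all head libraries there. The chromosome 19 window held 17, 17 and 20 in trunk osteoblasts and 12, 12 and 10 in head osteoblasts, with 16 and 14 in trunk chondrocytes and 9, 8 and 7 in head chondrocytes. The chromosome 3 window held 21, 21 and 19 in trunk osteoblasts and 13, 17 and 15 in head osteoblasts, with 22 and 22 in trunk chondrocytes and 15, 16 and 13 in head chondrocytes. Again no trunk library overlapped a head library in either window.

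Adjusted over the 6 windows, the exact permutation p was 0.01 for each of chromosomes 23, 19 and 3, with differences of 8.83, 6.83 and 6.33 regions (n = 5 and 6). Chromosomes 16, 9 and 12 differed by 1.5, 0.667 and -0.667 regions, and each had an exact adjusted p of 0.515. With all 12 libraries in the short lists, 0 of the 6 windows passed. The differences then were 1.67 regions on each of chromosomes 3, 19 and 23, with exact permutation p-values adjusted to 0.1, 0.1 and 0.06 (n = 6 each). Those on chromosomes 9, 12 and 16 were 0.833, 0 and -0.5. The move from 0 to 3 windows came with both a longer list and the removal of trunk chondrocyte replicate 3.

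**Figure D2:**
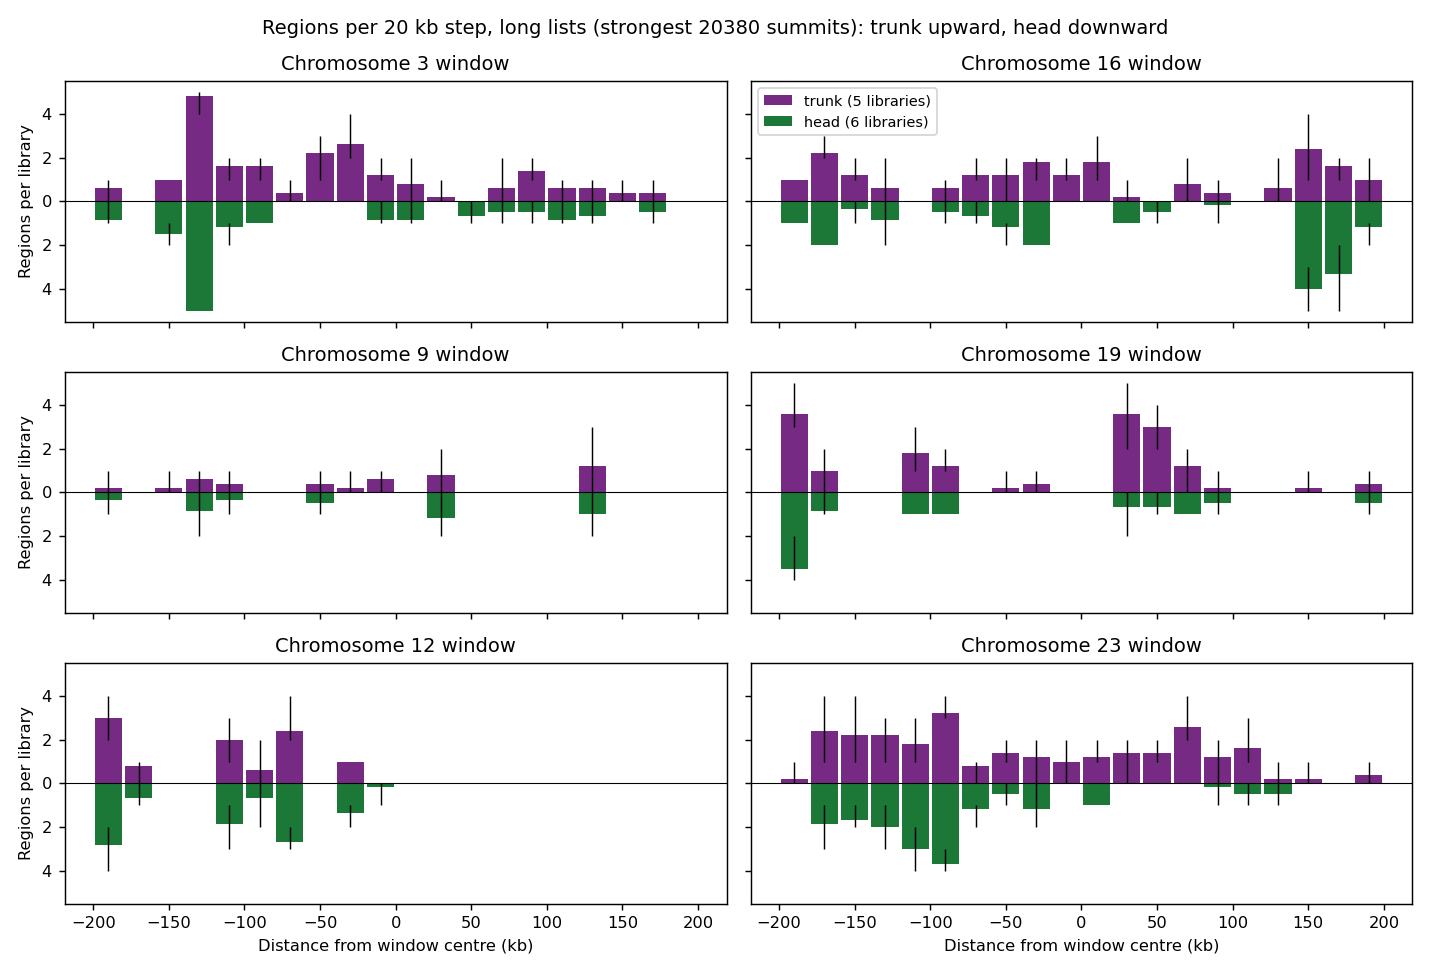
Mean number of regions per library in 20 kb steps along each window, in the long lists, against the distance from the window centre in kb. Upward bars are 5 trunk libraries, downward bars 6 head libraries, and the thin lines span the lowest to the highest library; stretches with trunk bars and no head bars lie near the centre of the chromosome 3 and 16 windows and right of the centre of the chromosome 23 window.

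Along the windows the extra trunk regions were gathered in a few stretches. On chromosome 3, between 23640001 and 23680000, all 6 head libraries held 0 regions in the long lists, while trunk libraries averaged 2.2 and 2.6 per 20 kb step. The same held on chromosome 23 between 36020001 and 36080000, where trunk libraries averaged 1.4, 1.4 and 2.6 per step and all head libraries held 0, although 1 trunk library or more also held 0 in the first step. Chromosome 16 had a shorter such stretch between 20880001 and 20920000, with trunk averages of 1.2 and 1.8. On chromosome 19, between 19720001 and 19760000, trunk libraries averaged 3.6 and 3.0 and head libraries 0.667 and 0.667. The opposite pattern was seen on the right of the chromosome 16 window, where steps from 21040001 to 21080000 averaged 2.4 and 1.6 in trunk libraries and 4.0 and 3.33 in head libraries. The libraries overlapped in those last 2 steps.

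Of the 83 Hox-window steps of 20 kb that held a region in the long lists, 7 (8.43%) had every trunk library above every head library, against 0.287% of the 24712 such steps of the genome. In 0 of the 83 steps every head library lay above every trunk library, against 0.174% of all steps. Over 100 kb, 3 of 22 bins (13.6%) had all trunk libraries above all head libraries, against 0.351% of 9699, and 0 had the reverse, against 0.227%. No test was run on these counts.

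The 2 bins that limma called in the whole genome for trunk against head both lay in Hox windows. In the bin chr23:36000001-36100000, in the long lists, trunk osteoblasts held 7, 11 and 8 regions and head osteoblasts 1, 2 and 1. Trunk chondrocytes held 7 and 6 there, and head chondrocytes 1, 1 and 1. The lowest trunk library thus held 6 and the highest head library 2. In the full lists, adjusted for list length, this bin was 1.89 ± 0.29 higher in trunk on the log2 scale of regions plus 0.5 (SE; limma adjusted p = 0.0312), averaged over both cell types. In chr3:23600001-23700000, trunk osteoblasts held 7, 11 and 8 regions in the long lists and head osteoblasts 2, 2 and 2, with 8 and 6 in trunk chondrocytes and 2, 1 and 2 in head chondrocytes. Its trunk minus head difference in the full lists was 1.50 ± 0.21 on the same scale (SE; limma adjusted p = 0.0184).

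These were 2 of 9407 bins, or 0.0213%, and 22 of the 24 Hox-window bins were tested. At an unadjusted limma p of at most 0.05 there were 8 Hox-window bins, each higher in trunk, and 588 bins genome-wide, of which 244 were higher in trunk. The median trunk minus head difference was 0.27 on the log2 scale over the 22 Hox-window bins and -0.01 over all bins. Both calls depended on single libraries. Limma called 0 Hox-window bins without head osteoblast replicate 1, trunk chondrocyte replicate 1, trunk chondrocyte replicate 2, head chondrocyte replicate 2 or head chondrocyte replicate 3. It called 1 without any one of the trunk osteoblast libraries. The sign did not turn in these fits, and the log2 difference lay between 1.14 and 2.22 for the chromosome 23 bin and between 1.04 and 1.75 for the chromosome 3 bin over all settings tried.

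**Figure D3:**
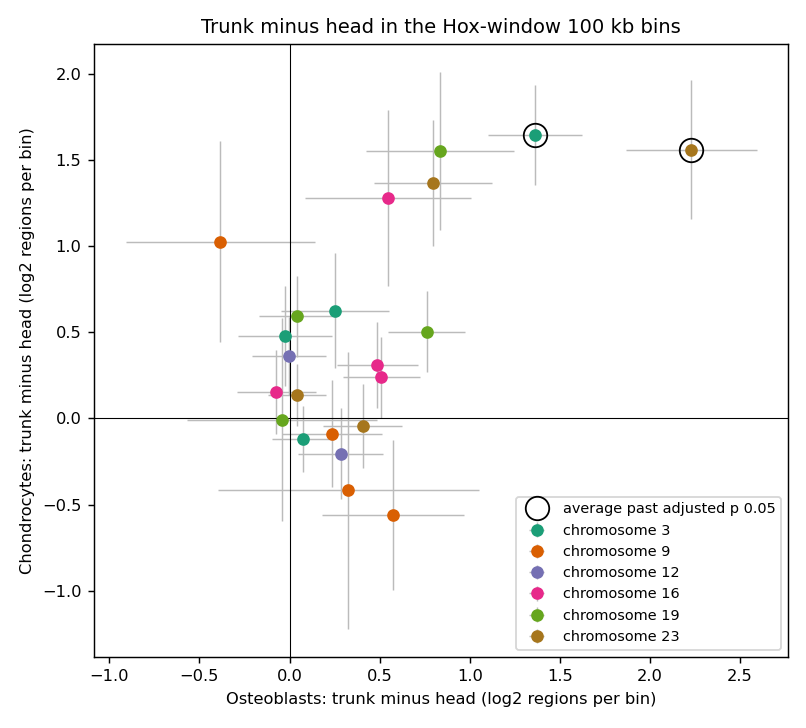
Trunk minus head difference in log2 regions per 100 kb bin, in chondrocytes against osteoblasts, for the 22 Hox-window bins tested, with SE bars and colour by chromosome. The 2 ringed bins, on chromosomes 3 and 23, are those past the threshold for the average of both cell types, and they lie above 1 on both axes.

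Within 1 cell type no bin passed. In osteoblasts limma called 0 of 9407 bins (0.0%), with 6 Hox-window bins and 787 of all bins at an unadjusted p of at most 0.05. In chondrocytes limma also called 0 (0.0%), with 7 Hox-window bins and 469 of all bins at that level. All 6 and all 7 were higher in trunk. The chromosome 23 bin from 36000001 had a trunk minus head difference of 2.23 ± 0.36 in osteoblasts (SE; limma adjusted p = 0.117) and 1.56 ± 0.40 in chondrocytes (limma adjusted p = 0.797), on the log2 scale. For the difference between the cell types in this effect, limma called 0 bins (0.0%), with 0 Hox-window bins and 636 of all bins at an unadjusted p of at most 0.05.

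Single regions that separated the locations were then sought, meaning regions with a summit in every library of one location and in none of the other. There were 11 trunk-only Hox-window regions in the long lists, 5.39% of the 204 regions held by any of the 11 libraries. The share over the 45381 regions of the series was 0.242%, or 110 regions, so 10.0% of the series' trunk-only regions lay in the Hox windows. No Hox-window region was head-only, against 0.132% of all regions. Of the 11, 4 lay on chromosome 23, 3 on chromosome 3, 2 on chromosome 16 and 2 on chromosome 19. With all 12 libraries, in the short lists, 1 region was trunk-only, against 0.109% of all regions, and 1 was head-only, against 0.0518%.

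The strongest trunk-only region was chr23:36052770-36052858, the only one of the 11 that separated all 12 libraries in the short lists. Its ranks were 2019, 1522 and 1887 in trunk osteoblasts and 1177, 1997 and 6092 in trunk chondrocytes. In the full lists of head cells it was found once, at rank 70330 of the 78652 summits of head osteoblast replicate 2. On the strength scale, log2 of the list length plus 1 over the rank and 0 where no summit was used, its trunk minus head difference was 2.01 in the short lists and 3.62 in the long lists. The trunk-only regions were chosen for their presence in trunk lists and absence from head lists, where their strength is 0, so such differences are descriptions and carry no test.

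The region chr16:20915269-20915647 had ranks of 4645, 2340 and 3394 in trunk osteoblasts and 10295, 6345 and 4487 in trunk chondrocytes. Head osteoblast replicates 2 and 3 had it at 36226 and 36441 and head chondrocyte replicates 1 and 2 at 49988 and 47665, all well down their full lists. Its trunk minus head strength was 0.89 in the short lists and 1.97 in the long lists. The region chr19:19744298-19744404 had ranks of 3592, 2228 and 5365 in trunk osteoblasts, 9534 and 14911 in trunk chondrocyte replicates 1 and 2, and no summit in trunk chondrocyte replicate 3. Head libraries held it at 75122 in osteoblast replicate 2 and at 47934 in chondrocyte replicate 1. It was thus stronger in trunk osteoblasts than in trunk chondrocytes by rank.

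On chromosome 3, chr3:23677345-23677354 had ranks of 5304, 6462 and 8409 in trunk osteoblasts and 8042 and 7866 in trunk chondrocyte replicates 1 and 2. The 1 head summit was at rank 57974 in osteoblast replicate 3. On chromosome 23, chr23:35944874-35945291 had ranks of 8411, 7249 and 8474 in trunk osteoblasts and 4752, 8762 and 4237 in trunk chondrocytes. This region lay close to the limit of the list, since head chondrocyte replicate 2 held it at rank 20840, and replicate 1 at 51351. The trunk minus head strength of these 2 regions in the long lists was 1.49 and 1.50.

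The other 6 trunk-only regions were weaker. They were chr16:20895847-20895905, chr3:23797982-23798100, chr19:19729526-19729768, chr3:23654233-23654273, chr23:36063536-36063569 and chr23:36109342-36109387, with mean ranks from 8885 to 16226 over the 5 trunk libraries. For 3 of the 11, chr3:23797982-23798100, chr23:36063536-36063569 and chr23:36109342-36109387, no head library had a summit in the region even in its full list. None of the 11 had a head summit within 1000 bp in the long lists. In the full lists 9 of the 11 had one in the region or within 1000 bp of it, so a weaker head signal was called in or near most of them.

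**Figure D4:**
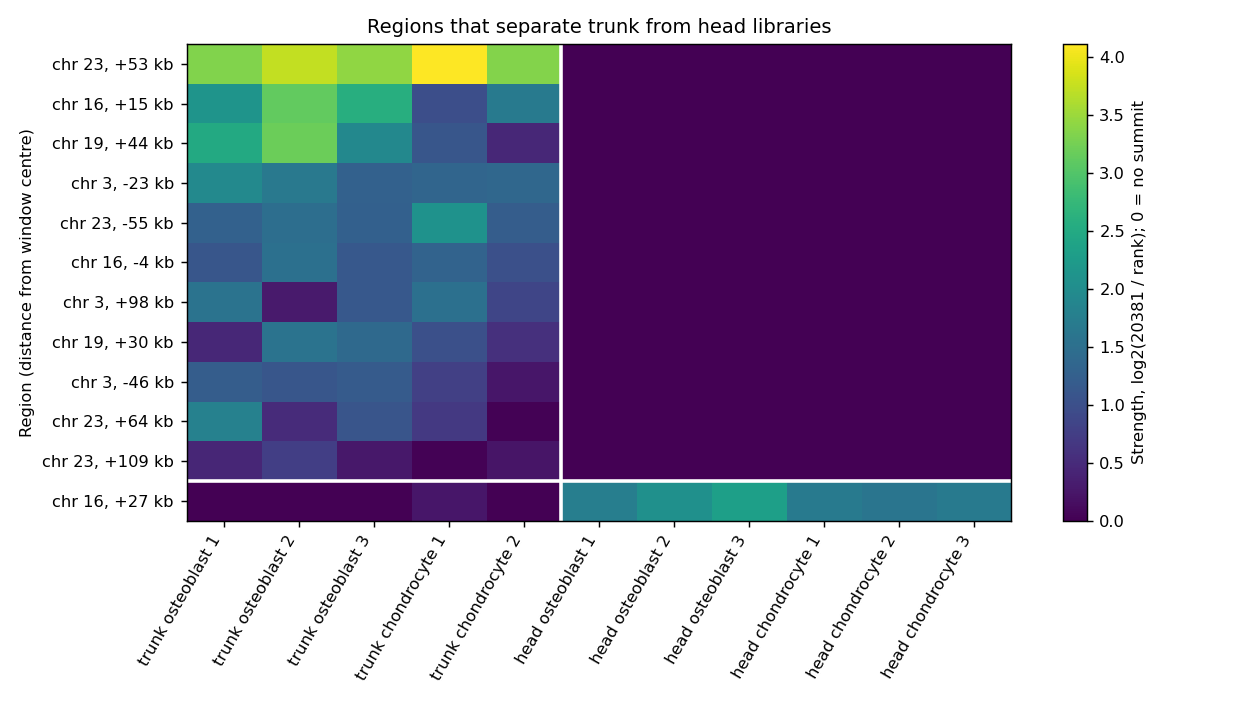
Strength of the 11 trunk-only regions in the long lists, in order of mean rank, and of the 1 region that was head-only in the short lists, in 5 trunk and 6 head libraries. Colour is log2 of the list length plus 1 over the rank, 0 means no summit in the long list, and regions are named by chromosome and distance from the window centre; the head-only region has 1 faint trunk cell, trunk chondrocyte replicate 1.

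A site stronger in head cells lay near the strongest trunk-only region of chromosome 16. The region chr16:20926760-20926931 was found in trunk libraries at rank 51113 in osteoblast replicate 3 and at 17084 and 22125 in chondrocyte replicates 1 and 2. Its ranks were 6044, 4858 and 4081 in head osteoblasts and 6294, 6693 and 6393 in head chondrocytes, all ahead of the trunk ranks. It was the head-only region of the short lists, and its trunk minus head strength there was -0.58, a description for the same reason. In the long lists, where trunk chondrocyte replicate 1 held it, the difference was -1.79.

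In osteoblasts alone, in the long lists, 22 of 174 Hox-window regions were trunk-only, against 2.84% of all regions, and 8 were head-only, against 3.03%. The trunk-only ones made up 12.6% of the Hox-window regions and the head-only ones 4.60%. Besides regions already described they included chr16:20752701-20753061, with ranks of 6565, 5555 and 9203 in trunk osteoblasts, and chr3:23616022-23616413, with ranks of 6395, 7013 and 9174. Head-only regions included chr3:23753378-23753435, with ranks of 8174, 9646 and 13152 in head osteoblasts. A neighbouring pair on chromosome 23 moved in opposite directions. The region chr23:35866323-35866433 had ranks of 5729, 2634 and 3720 in trunk osteoblasts and no summit in head osteoblasts, while chr23:35865970-35866025 had none in trunk osteoblasts and 4844, 4507 and 7343 in head osteoblasts. Both regions of that pair had a summit of all 6 libraries of the other location within 1000 bp, so the position of the summit differed between trunk and head osteoblasts and not the presence of a nearby site.

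Chondrocytes gave fewer such regions at their shorter list length. Of 68 Hox-window regions in the short lists 2 were trunk-only, against 1.93% of all regions, and 3 were head-only, against 2.46%. These few regions were 2.94% and 4.41% of the Hox-window regions. The trunk-only ones were chr23:36052770-36052858 and chr23:36025580-36025770, the second with ranks of 3417, 2564 and 3940 in trunk chondrocytes. The head-only ones were chr3:23774672-23774724, chr16:20926760-20926931 and chr16:20707745-20707796. In the long lists 1, 1 and 5 trunk libraries of either cell type had a summit within 1000 bp of them, in that order. The last was thus head-only at the length of the short lists and was held by trunk cells in the long lists. Without trunk chondrocyte replicate 3, on longer lists, 30 of 179 Hox-window regions were trunk-only (16.8%), against 3.83% of all regions, and 7 were head-only (3.91%), against 3.88%.

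The strength of each region was also compared in a fit over all regions held by at least 3 libraries. From the short lists 55 Hox-window regions entered, and 10 of them differed between trunk and head on average, 6 higher in trunk and 4 lower. Genome-wide 4.48% of 12336 regions differed, 2.21% higher and 2.27% lower. Regions higher in trunk were thus 10.9% of the Hox-window regions, and lower ones 7.27%. In osteoblasts 7 differed, 3 higher in trunk and 4 lower, against 5.16% of all regions. In chondrocytes 5 differed, 4 higher and 1 lower, against 5.76%. The median trunk minus head difference was 0.02 over the 55 regions and -0.04 over all. A difference on average need not hold in both cell types. Among the 10 were chr9:2133753-2133839, chr16:21095291-21095710 and chr23:36025580-36025770, each missing from the short lists of 1 cell type. Also among them were chr23:36052770-36052858 and chr16:20926760-20926931, described above as trunk-only and head-only. The regions higher in trunk included chr23:35866323-35866433, which had a summit of all 6 head libraries within 1000 bp in the long lists. It is counted here although a nearby site was present in head cells.

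In the long lists, without trunk chondrocyte replicate 3, the count was 36 of 127 Hox-window regions, 25 higher in trunk and 11 lower, against 9.83% of 28360 regions, 5.42% higher and 4.41% lower. Regions that enter only through the group where they are strong had to differ, so these shares describe the regions tested and not all 478. Held in the short lists of both locations, chr12:26981551-26981671 was higher in trunk in both cell types, with ranks of 6322, 4494 and 4503 in trunk osteoblasts and 15718, 14961 and 14661 in head osteoblasts. In chondrocytes its ranks were 1180, 1106 and 2867 in the trunk and 3203, 3403 and 5176 in the head. Trunk and head ranks did not overlap in either cell type, and the trunk minus head strength in the long lists was 1.67 ± 0.21 (SE; limma adjusted p = 0.000864). In the short lists it was 1.02 ± 0.26 (limma adjusted p = 0.0375, and from 0.000864 to 0.0909 in the other settings). This difference passed in 4 of 15 other settings. The head osteoblast ranks of this region lay outside the short lists and entered that fit as 0. In the same fit chr16:21075042-21075212 was lower in trunk on average, a difference that its chondrocyte ranks make up. They were 8458, 4391 and 5284 in trunk chondrocytes and 1550, 2367 and 2268 in head chondrocytes. Its trunk minus head strength in the short lists, averaged over both cell types, was -0.76 ± 0.20 (SE; limma adjusted p = 0.0431, and from 0.025 to 0.101 in the other settings). It passed in 3 of 15 other settings, and no difference in osteoblasts is shown. The trunk chondrocyte rank of 8458 lay outside the short lists and entered that fit as 0. The number of Hox-window regions called in the short lists fell to between 2 and 9 when 1 library was left out, with the lowest count without head osteoblast replicate 2. It was 3 without head osteoblast replicate 3, head chondrocyte replicate 1 or head chondrocyte replicate 2, and 4 without head osteoblast replicate 1. It was 5 without trunk osteoblast replicate 2, trunk chondrocyte replicate 1 or head chondrocyte replicate 3, and 6 without trunk osteoblast replicate 1.

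**Figure D5:**
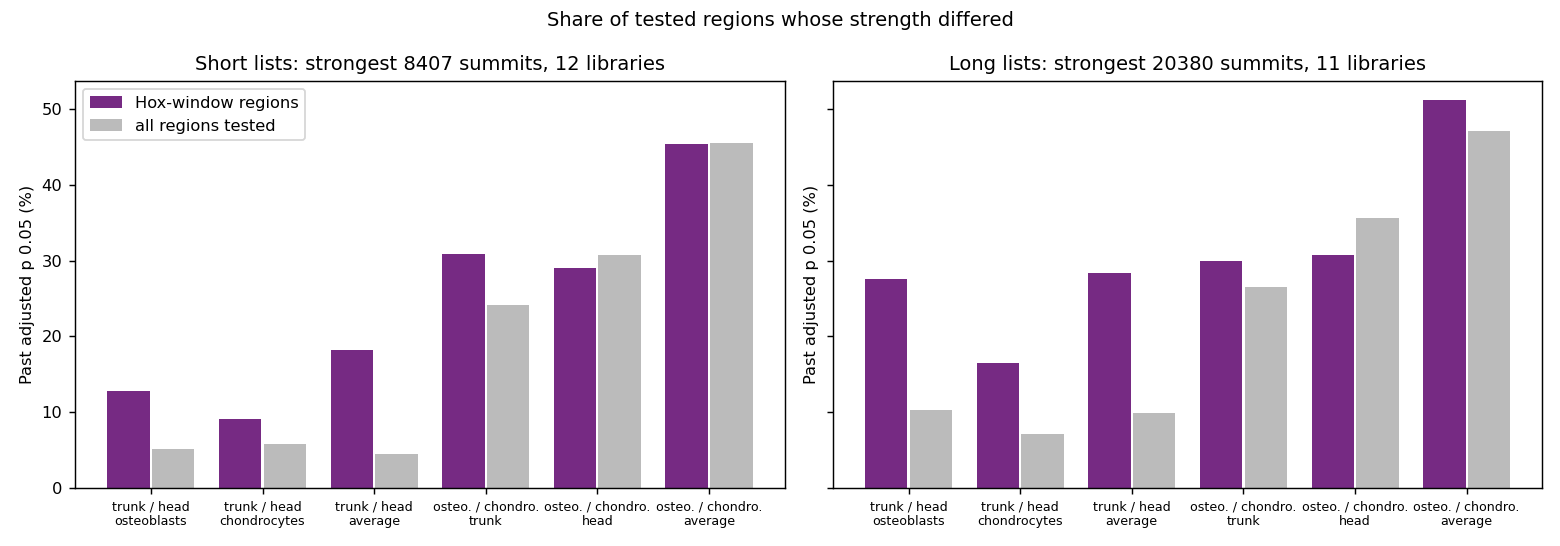
Percentage of tested regions whose strength differed at an adjusted limma p of at most 0.05, for Hox-window regions and for all regions tested, in 6 contrasts in the short and in the long lists. For trunk against head the Hox-window bars are the taller in every contrast, and for osteoblasts against chondrocytes neither colour is the taller throughout.

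Between osteoblasts and chondrocytes the total number of Hox-window regions showed no difference past the test. Osteoblast libraries of the short lists held 37.5 ± 4.04 and chondrocyte libraries 39.2 ± 2.99 (SD, n = 6 each; exact permutation p = 0.235), a difference of -1.67. In the long lists the difference was 4.17 (exact permutation p = 0.06, n = 6 and 5), so its sign turned with the list length. As a share of the full lists it was -0.00199 percentage points (exact permutation p = 0.9). The pairs within a location, head osteoblasts against head chondrocytes at 104 ± 11.5 and 100.3 ± 2.31 on 28911 summits each (exact permutation p = 0.6, n = 3 each) and trunk osteoblasts against trunk chondrocytes at 40.7 ± 2.89 and 41.3 ± 1.15 in the short lists (exact permutation p = 0.8, n = 3 each), overlapped.

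Single windows did differ between the cell types, in opposite directions. In the short lists the chromosome 9 window held 2, 0 and 0 regions in trunk osteoblasts, 0, 0 and 0 in head osteoblasts, 3, 2 and 5 in trunk chondrocytes and 2, 3 and 2 in head chondrocytes. Osteoblasts minus chondrocytes was -2.5 (exact permutation p adjusted over the 6 windows = 0.03, n = 6 each) and, in the long lists, -3.33 (adjusted p = 0.03, exact, n = 6 and 5). The chromosome 19 window went the other way, with 7, 8 and 9 in trunk osteoblasts, 5, 6 and 5 in head osteoblasts, 4, 5 and 6 in trunk chondrocytes and 4, 5 and 4 in head chondrocytes. There the difference was 2.0 in the short lists and 3.17 in the long lists, each with an exact adjusted p of 0.03 (n = 6 each, and 6 and 5). The chromosome 3, 12 and 23 windows passed in the short lists with 2.67, -2.0 and -2.0 (exact adjusted p = 0.03 each, n = 6 each), and in the long lists turned to -0.667, 2.67 and 4.17. This comparison by window was chosen after seeing the data. No windows of equal size elsewhere in the genome were compared, so these differences are not shown to be particular to the Hox windows.

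By single regions in the short lists, the share of Hox-window regions that differed between the cell types on average was close to that over all regions. Whether they differed more or less often than elsewhere was not tested. Of 55 Hox-window regions in the short lists 25 differed in strength on average, against 45.5% of all regions tested, 14 higher in osteoblasts and 11 lower. Within the head 16 differed, against 30.8%, and within the trunk 17, against 24.1%. Over both locations, osteoblast-only regions in the short lists numbered 0 of 92 Hox-window regions, against 1.75% of all regions, and chondrocyte-only ones 4, against 3.95%. Both numbered 3 of 204 in the long lists, against 1.65% osteoblast-only and 4.06% chondrocyte-only over all regions. Within the head, on 28911 summits each, 12 of 170 were osteoblast-only, against 7.6% of all regions, and 15 were chondrocyte-only, against 9.45%. Within the trunk, in the short lists, 3 of 79 were osteoblast-only, against 5.47% of all regions, and 7 were chondrocyte-only, against 7.46%. Of 100 kb bins limma called 1 Hox-window bin on average, chr9:1800001-1900000 at -0.61 ± 0.19 (SE; limma adjusted p = 0.0499), against 9.5% of all bins, and from 0.0206 to 0.149 in other settings. It called 0 Hox-window bins within the head, against 0.393% of bins, and 0 within the trunk, against 3.38%. At an unadjusted limma p of at most 0.05 there were 5 and 3 Hox-window bins. The share of all bins at that level is not given here, so these counts are not read against the genome.

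The strongest cell-type difference lay at chr23:35933095-35933173, which had ranks of 10803, 13247 and 23348 in trunk osteoblasts and 411, 430 and 1786 in trunk chondrocytes. It had no summit in head osteoblast replicate 1, ranks of 22693 and 21836 in head osteoblast replicates 2 and 3, and 973, 939 and 1103 in head chondrocytes. Every chondrocyte rank was ahead of every osteoblast rank, and the osteoblast minus chondrocyte strength was -3.35 in the short lists, none of which held it in osteoblasts, and -4.72 in the long lists. On chromosome 9, chr9:2125775-2125825 was likewise a chondrocyte site. Its ranks were 25212 in trunk osteoblast replicate 3 and 30021 and 31470 in head osteoblast replicates 2 and 3, with no summit in the other osteoblast libraries. In trunk chondrocytes they were 1282, 1429 and 2132, and in head chondrocytes 2138, 1310 and 2878, for a difference of -2.24 in the short lists. Both regions entered the fit of the short lists through chondrocytes alone, so their differences are given without a test.

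A site stronger in osteoblasts, but found in every library, lay on chromosome 3 at chr3:23555234-23555315. Its ranks were 2859, 1949 and 1365 in trunk osteoblasts and 11818, 5738 and 5760 in trunk chondrocytes. In head osteoblasts they were 2059, 1518 and 1409, and in head chondrocytes 9612, 7799 and 13455. No osteoblast rank overlapped a chondrocyte rank, and the osteoblast minus chondrocyte strength was 2.03 ± 0.23 in the short lists (SE; limma adjusted p = 9.28e-06). The chondrocyte ranks of 11818, 9612 and 13455 lay outside the short lists and entered that fit as 0.

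Whether the trunk minus head difference itself differed between the cell types was tested as the osteoblast difference minus the chondrocyte difference in the short lists. Of the 55 Hox-window regions 3 passed in limma, against 1.34% of all regions tested. In each of the 3 the short lists of 1 cell type lacked the region, so its difference there is 0 by construction and the test restates the difference in the other cell type. Their values are therefore descriptions. The region chr16:21095291-21095710 had ranks of 13548, 8926 and 8137 in trunk osteoblasts and 2535, 2354 and 2003 in head osteoblasts. Among chondrocytes it was found at rank 48021 in trunk replicate 2 and at 66584 in head replicate 1 of the full lists, and in no other library. It was thus an osteoblast site that was weaker in the trunk, with a trunk minus head strength of -1.86 in osteoblasts. Trunk and head osteoblast ranks did not overlap.

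The other 2 were chondrocyte sites that were stronger in the trunk. The region chr9:2133753-2133839 had ranks of 3202, 3083 and 2372 in trunk chondrocytes and 8544, 6229 and 9276 in head chondrocytes, which did not overlap. Its trunk minus head strength was 1.41 in chondrocytes, and its osteoblast ranks began at 9649, outside the short lists. In the long lists, which hold it in 1 osteoblast library, the difference of the differences was -0.97 and did not pass (limma adjusted p = 0.267). The region chr23:36025580-36025770 had its trunk chondrocyte ranks given above, ranks of 29833 and 32789 in head chondrocyte replicates 1 and 2, and no summit in head osteoblasts. In the short lists the 3 trunk chondrocyte libraries alone held it, with a trunk minus head strength of 1.37 in chondrocytes.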

How the data were processed

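Summit lists of 12 ATAC-seq libraries were used. The tools listed in the submitters' processing notes are MACS2, Bowtie2, fastp, deepTools, SAMtools and bedtools, and the listed build is danRer11, the same assembly as GRCz11. Each summit's deposited score is a −log10 value from the authors' peak calling, of a p-value or a q-value, which of them being not stated. The lowest score used differed between libraries, from 1.31 to 172 in the short lists, so scores served only to rank summits within a library. Tagmentation was adjusted to the cell number of each sample, per the labels' protocols, so depth and signal to noise can differ between libraries. Peak names in 7 of the 12 lists carry another number than the title, and titles were followed.

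Summits within 250 bp were chained. Counts per library were compared by exact two-sided permutation within the other factor. Limma was fitted to log2(regions + 0.5) in 9407 bins of 100 kb with a mean of at least 1 region, with list length as a covariate, and to region strength for regions held by at least 3 libraries. P-values were adjusted by Benjamini-Hochberg over all features, with a threshold of 0.05. Both limma fits were tested on simulated data. R 4.3.3, limma 3.58.1, Python 3.11.15, numpy 2.4.6, pandas 2.3.3, scipy 1.17.1 and matplotlib 3.10.9 were used.

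Named regions were those past the threshold or separating the groups, up to 10 a comparison, the 6 strongest held by all libraries, the strongest of each window and those at the window edges. All 11 trunk-only regions of the long lists were named, a choice made after their values were seen. The windows, lists and comparisons were chosen with earlier results of these data known. Chaining within 100 and 500 bp, windows of 200 and 600 kb, a minimum score of 5, a pseudocount of 1, no filter, a replicate block and leaving out each library were alternatives. The share of the full list, the separating regions in the long lists and the comparisons by window in the long lists and between cell types were chosen after seeing the data.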

Additional observations from a re-analysis of the deposited data

Results flagged for a closer look

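Among 28 sets of 6 libraries examined for a library far from the others, 3 held one. The cut-off used gives about 1 in 20 for continuous values of 1 group. These sets hold small counts, mix groups and share libraries, so that rate need not hold here. In the short lists head chondrocyte replicate 1 held 8 regions of the chromosome 23 window, the lowest of the 6 chondrocyte libraries. In the chromosome 9 window trunk osteoblast replicate 1 held 2, the highest of the osteoblast libraries, which otherwise held 0. Trunk chondrocyte replicate 3, the shortest list, held 5 there, the highest of the chondrocyte libraries.

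Limma flagged 3 regions for the trunk minus head strength in osteoblasts minus that in chondrocytes. These flags are not read as a difference between the cell types. In each, the short lists of 1 cell type lacked the region, so the test restates the difference in the other. The region chr23:36025580-36025770 entered the fit through trunk chondrocytes alone. The trunk minus head strength in osteoblasts minus that in chondrocytes was -1.41 at chr9:2133753-2133839, -1.86 at chr16:21095291-21095710 and -1.37 at chr23:36025580-36025770.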

How the results depend on the processing

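In the full lists, where trunk lists are shorter on average, the trunk minus head count turned to -46.8 regions, and to -47.8 with a minimum score of 5. Osteoblasts alone gave -32.3 and -33.3 under those settings and chondrocytes alone -61.3 and -62.3. With the numbers in the peak names as a replicate block it was 5.42 (exact permutation p = 0.0625, 32 arrangements, n = 5 each), the smallest p this block can give. Osteoblasts minus chondrocytes was 8.5 in full lists, 4.17 with the minimum score and in the long lists, and 2.0 in 600 kb windows. In the head it was -6.0, -10.3 with the minimum score, -3.67 in 200 kb windows and -1.5 with the peak-name block, and in the trunk 23, 18.7 with the minimum score and 1.33 in 600 kb windows. By window, full lists gave -11.7, -10.7, -3.33 and -5.33 on chromosomes 3, 9, 19 and 23, and the minimum score -10.3, -10.3, -3.0 and -6.0. Chromosome 16 turned to 0.833 in 200 kb windows, 1.5 in the long lists and 0.0249 as a percentage. Windows past the threshold numbered 2 in 600 kb windows, 3 as a share and 3 in the long lists. Libraries with the same replicate number in the titles had correlations of deviations from -0.303 to 0.377 over 18 pairs, 3 of them over 0.1. With 3 libraries a group, these values cannot show whether same-numbered libraries shared fish or a sort. Trunk and head osteoblast lists carry the same peak-name numbers, 2, 3 and 4, in the same order. With the title number as a block, trunk minus head in osteoblasts stayed 23.7 (exact permutation p = 0.25, the smallest that 3 pairs can give). Bins called for trunk against head then numbered 0, or 1 with the peak-name block.

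Separating regions in the full lists numbered 2 trunk-only (against 0.00225% of all regions) and 1 chondrocyte-only (0.0863%) of 478, and in the long lists 11 trunk-only, 0 head-only and 3 osteoblast-only. In chondrocytes full lists gave 5 trunk-only (1.36%, against 0.0221% of all regions) and 9 head-only (2.45%, against 3.35%), and chaining within 100 bp gave 1 trunk-only of 72 (against 1.80%). In the head full lists gave 3 osteoblast-only and 8 chondrocyte-only of 394 (against 2.07 and 3.72% of all regions), and in the trunk 5 and 1 of 360 (against 1.10 and 0.453%). For bins, equal lists, in which 13 Hox-window bins were tested for want of regions, called 2 in osteoblasts, 1 in chondrocytes, 3 between cell types in the head, 1 in the trunk and 3 on average. A pseudocount of 1 or no filter called 1 in osteoblasts, and 3 and 0 between cell types on average. Between trunk cell types 1 was called with file loss as a term and with either block, and on average 2 with the peak-name block. Shares over all bins under these settings are not given here, so these bin counts are not read against the genome. For strength, the long lists, with 127 Hox-window regions tested, called 35, 21 and 36 for trunk against head in osteoblasts, chondrocytes and on average, against 10.3, 7.07 and 9.83% of all regions. Between cell types in the head, trunk and on average they called 39, 38 and 65, against 35.6, 26.5 and 47.2%, and for the difference of differences 9, against 3.97%. With the replicate block the short lists called 1 for that difference. The cause of these moves was not tested.

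With 1 library left out, trunk minus head counts lay between 4.5 and 23.5 on average, 21.3 and 31.8 in osteoblasts and 2.83 and 35.0 in chondrocytes. For these counts and for separating regions, leaving out the shortest list of a comparison also lengthened the lists, so 2 things changed at once. The 23.5 came without trunk chondrocyte replicate 3, in the long lists. Every other library left out gave between 4.5 and 5.83 on average. Osteoblasts minus chondrocytes lay between -2.5 and 4.17, in the head between -0.833 and 9.67 and in the trunk between -2.33 and 4.33. By window the ranges were 1.42 to 6.33, 0.5 to 1.17, -0.667 to 0.25, -0.917 to 1.5, 1.42 to 6.83 and 1.17 to 8.83 for chromosomes 3, 9, 12, 16, 19 and 23, with 0 to 3 past the threshold. Separating regions ranged from 1 to 11 trunk-only and 0 to 1 head-only, in osteoblasts 22 to 34 and 8 to 14, in chondrocytes 2 to 30 and 3 to 7. Between cell types they ranged from 0 to 3 osteoblast-only and 3 to 6 chondrocyte-only, in the head 14 to 29 and 15 to 19, in the trunk 3 to 13 and 7 to 16. Bins called ranged from 0 to 2 for trunk against head, 0 to 3 in osteoblasts and 0 to 1 between cell types. Strength calls ranged from 3 to 9 in osteoblasts, 2 to 6 in chondrocytes, 2 to 9 on average, 9 to 16, 12 to 16 and 20 to 27 between cell types in the head, trunk and on average, and 0 to 4 for the difference of differences. Shares over all features for these bin and strength ranges are not given here.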
